A study of Homo sapiens with 9 samples.

Results

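The genes described here are the 37 genes of the human mitochondrial genome. They were taken as every row of the deposited expression table whose chromosome was MT, which gave 37 of 58735 genes: 13 protein-coding genes, 2 rRNA genes, and 22 tRNA genes. Poly-A-selected RNA was sequenced from the established colorectal carcinoma line HCT116 in 9 libraries of paired-end 150 bp reads. A20-WT cells were unedited, and A20-KO cells had been transduced with the lentiCRISPR v2 vector carrying a guide against A20 (the product of TNFAIP3). The libraries titled OE were taken as the rescue group of the study, which were A20-KO cells in which A20 was expressed again, and are called A20-OE here. The study selected transduced cells with puromycin and does not say whether A20-WT cells carried a control vector. Each group had 3 libraries. The study describes an A20 expression vector, pCMV-3xFlag-A20, but neither the labels nor the methods say whether the edited cells were 1 clone or a pool, nor whether replicates were separate cultures. The p-values therefore measure the spread between these libraries, which may be technical.

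Human mitochondrial DNA is a small circle that is transcribed from both strands into long precursors, which are cut into the individual RNAs, largely at the tRNAs that lie between the other genes. One precursor carries most genes and is called here the heavy-strand transcript, while the other, the light-strand transcript, carries MT-ND6 and 8 of the tRNAs. The mRNAs encode core subunits of respiratory complexes I, III, IV, and V, and the rRNAs and tRNAs serve the ribosomes inside the organelle that translate them. Most mitochondrial mRNAs and the rRNAs carry poly-A tails, short on the rRNAs, whereas the MT-ND6 mRNA is known to lack one and mature tRNAs end in CCA, so a poly-A-selected library samples these classes unequally.

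TNFAIP3 mRNA had 0.802 ± 0.0665 FPKM (SD, n = 3) in A20-WT, 1.71 ± 0.593 under the A20-KO label, and 60.6 ± 5.25 in A20-OE (FPKM, fragments counted on a gene divided by its length in kilobases and by library depth). The libraries labelled A20-KO thus held no less mRNA of the targeted gene (log2 fold change against A20-WT 0.95, limma adjusted p = 0.018). Directions given for that group follow its label. An mRNA level cannot show whether the A20 protein was lost, which was not tested here. The study examined A20 expression in its knockout and rescue cells separately. The recovered reads per library lay between 23406222 and 24963691. The 6 epithelial markers summed to 1122 to 1525 FPKM in A20-WT, 1755 to 2316 under the A20-KO label, and 1755 to 2309 in A20-OE. The blood cell markers summed to at most 0.654 FPKM in any library, and the 3 markers of embryonic kidney packaging cells to at most 4.55. Fibroblast markers summed to 4.60 to 5.84 FPKM in A20-WT, 12.5 to 15.002 under the A20-KO label, and 11.03 to 12.3 in A20-OE. Nearly all of this was COL1A1, the one fibroblast gene tested, which was called higher in both comparisons with A20-WT. The packaging cell marker SIX2 was called higher in A20-KO against A20-WT and lower in A20-OE against A20-KO. The part of these markers in the results was not tested. A pair of libraries stood apart on members. A20-WT replicate 1 had 74 MT-TY reads where the other A20-WT libraries had 964 and 732. A20-KO replicate 2 had 0.0419% of its mitochondrial reads on heavy-strand tRNAs, against 0.107% and 0.106% in its group.

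Mitochondrial genes took a larger part of the sequenced RNA in A20-OE than in either other group. The 37 genes held 10.1%, 8.72%, and 7.52% of all reads in the A20-WT libraries, 9.18%, 10.1%, and 11.9% under the A20-KO label, and 12.2%, 12.0%, and 13.95% in A20-OE. The means were 8.79 ± 1.30% (SD, n = 3), 10.4 ± 1.36%, and 12.7 ± 1.08%. The A20-OE libraries lay above the other 6, while A20-WT and the libraries labelled A20-KO overlapped. In bulk RNA, more mitochondrial RNA per cell and less nuclear RNA per cell cannot be told apart, and no test was made of a sum over the members.

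The classes did not share this order. Protein-coding genes held 7.87 ± 1.18% of all reads in A20-WT, 8.84 ± 1.16% under the A20-KO label, and 11.5 ± 1.00% in A20-OE. The rRNA genes held 0.867 ± 0.120% of reads in A20-WT, 1.52 ± 0.217% under the A20-KO label, and 1.18 ± 0.0744% in A20-OE, with no overlap between any of the groups. The tRNA genes held 0.0446 ± 0.00306%, 0.0422 ± 0.00718%, and 0.0749 ± 0.00102%, and only the A20-OE libraries stood apart. Within the mitochondrial reads, the rRNA part was 9.76% to 9.95% in A20-WT, 13.9% to 15.5% under the A20-KO label, and 9.04% to 9.39% in A20-OE.

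Most of the mitochondrial protein-coding genes were among the genes with the highest FPKM in these libraries, with MT-ATP8 as the exception. MT-ATP8 lies on the same mRNA as MT-ATP6, so its FPKM describes the reads assigned to that gene and not the level of the mRNA. In each of the 9 libraries the 10 genes with the highest FPKM were mitochondrial. Over the 9 libraries MT-CO3 and MT-CO2, which encode subunits of cytochrome c oxidase (complex IV), averaged 15268 and 15056 FPKM, and their ranges overlapped. MT-CO1, the catalytic subunit of the same complex, averaged 13150 FPKM, and MT-ATP6, a subunit of ATP synthase (complex V), averaged 11486. The lowest values were those of MT-ND5, a subunit of NADH dehydrogenase (complex I), with 3445 FPKM, and MT-RNR1, the rRNA of the small ribosomal subunit, with 2612, and far below them MT-ATP8, with 67.7 and a rank between 356 and 765 among all genes of a library. Within A20-WT, each of the first 12 genes of that group's order overlapped the next, whereas MT-ND5, MT-RNR1, and MT-ATP8 at its end did not overlap one another. Under the A20-KO label MT-RNR1 had a higher mean than MT-ND6 and MT-ND5 instead, and in A20-OE the complex IV mRNAs lay above MT-ATP6 without overlap.

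**Figure D1:**
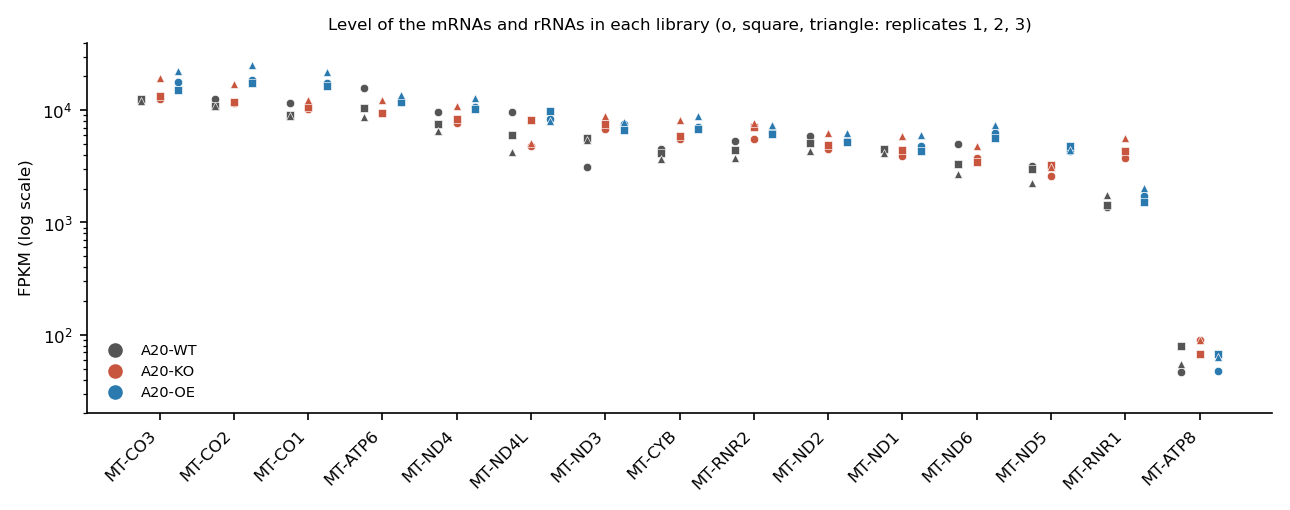
FPKM (log scale) of the 13 protein-coding and 2 rRNA genes in each library, ordered by their mean over the 9 libraries. MT-RNR1 is higher under the A20-KO label, and MT-ATP8 lies far below the rest at 46.7 to 90.8 FPKM.

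MT-ATP8 and MT-ATP6 lie on 1 mRNA with overlapping reading frames, and their annotated genes share 46 bases. MT-ATP8 nevertheless had 46.7 to 90.8 FPKM, between 0.00297 and 0.00946 of the MT-ATP6 value in the same library. MT-ND4L and MT-ND4, which also share an mRNA and overlap by 7 bases, had FPKM ratios from 0.464 to 0.996. How the authors counted reads that overlap more than 1 gene, and whether strand was used, is not given in the sources used here. Values of overlapping genes, and of neighbours on opposite strands such as MT-ND6 with MT-ND5, are therefore uncertain.

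All 37 genes passed the filter on low values and were tested among 21636 genes with limma on log2(FPKM + 0.1), so each fold change is on that scale and is understated for genes with low values. The threshold for a call was an adjusted p under 0.05 (Benjamini-Hochberg over the genes tested). In A20-KO against A20-WT, 3 of the 37 (8.11%) were called, where 22.3% of the genes tested were. In A20-OE against A20-KO it was 5 of 37 (13.5%), where 8.97% of the genes tested were called. For A20-OE against A20-WT it was 10 of 37 (27.0%), where 31.1% of the genes tested were called. With an absolute log2 fold change above 1 as well, the members called were 2, 4, and 8, against 6.99%, 2.39%, and 11.9% of the genes tested. The groups did not overlap for 11, 14, and 21 members (29.7%, 37.8%, and 56.8%), and for 38.1%, 35.4%, and 45.3% of the genes tested. Of these 18 calls, 16 were lost when genes under the filter on low values were kept in the fit. The comparisons share libraries, so their values are given side by side and are not independent.

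**Figure D2:**
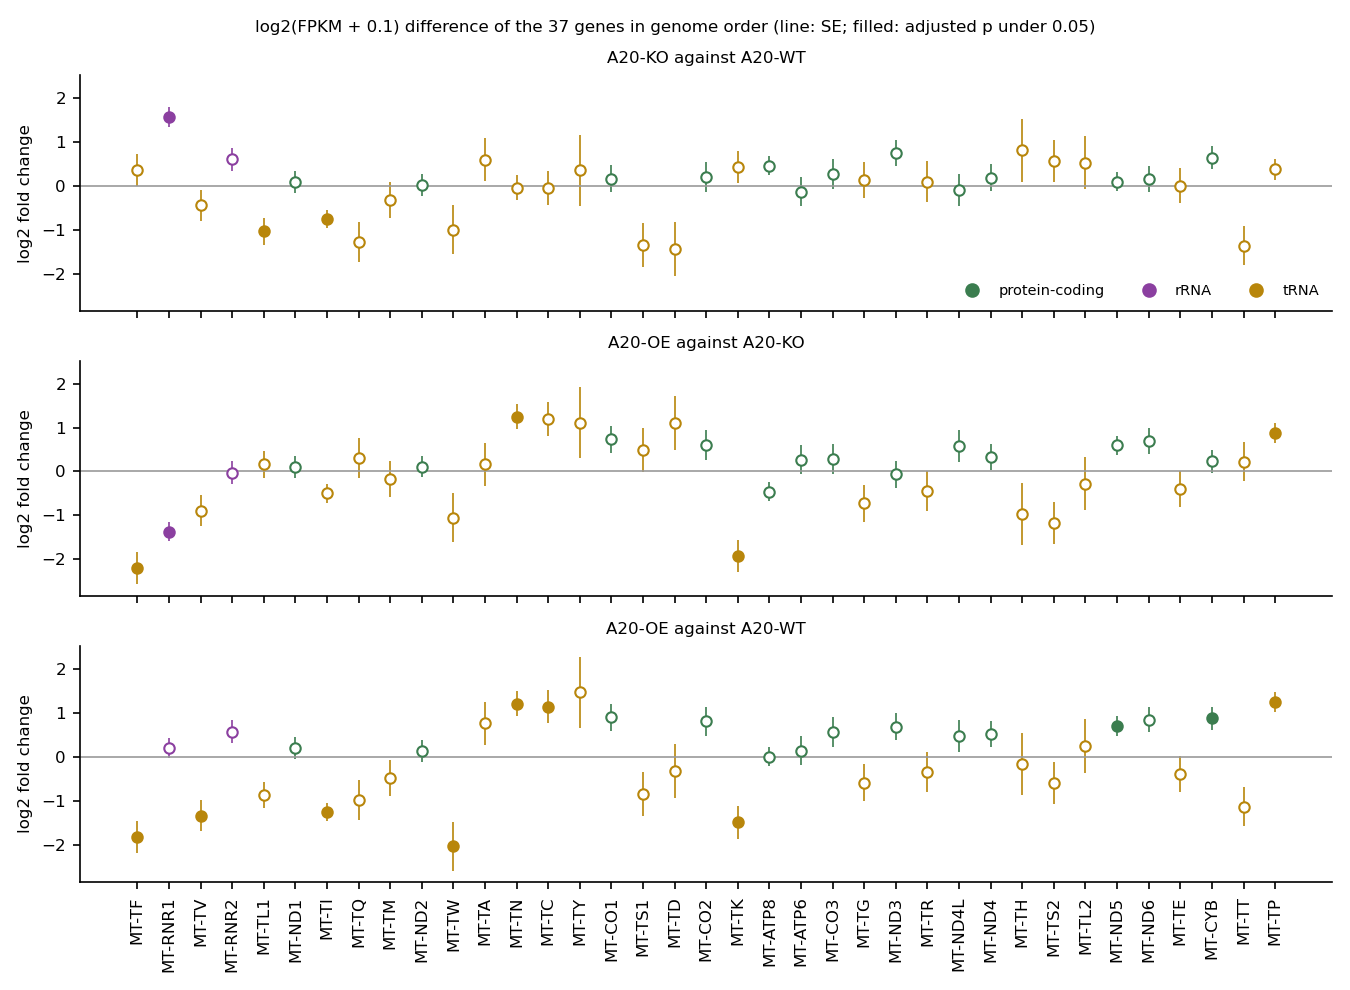
log2 fold change of the 37 genes in genome order for the 3 comparisons, with SE, coloured by RNA class and filled where called. In A20-OE against A20-WT each protein-coding gene has a value above 0 (12 of 13 when scaled to total reads), and 13 of 14 heavy-strand tRNAs lie below 0.

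The RNA classes had different medians. The 13 protein-coding genes had a median log2 fold change of 0.17 in A20-KO against A20-WT, 0.29 in A20-OE against A20-KO, and 0.57 in A20-OE against A20-WT. Over all genes tested these medians were -0.01, 0.01, and 0.03. Of the 13, limma called 2 in A20-OE against A20-WT, where limma-voom on the recovered reads called 8 and a fit without the filter on low values 0 (5 had an unadjusted p under 0.05). None was called in the other comparisons, where 2 and 3 had an unadjusted p under 0.05 and limma-voom called 2 and 4. Of all 21636 genes tested, 7686, 5521, and 8972 had an unadjusted p under 0.05, in the order of the medians above. All 13 had a value above 0 in A20-OE against A20-WT, or 12 when scaled to total reads. The 14 heavy-strand tRNAs had medians of -0.10, -0.61, and -0.73 in the same order, and the 8 light-strand tRNAs medians of -0.01, 0.68, and 0.95. Of those 8, 5 were above 0 in A20-OE against A20-WT, and MT-TQ, MT-TS1, and MT-TE were below, at -0.98, -0.86, and -0.39.

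The clearest difference of the libraries labelled A20-KO from both other groups was in MT-RNR1, the 12S rRNA of the small subunit of the mitochondrial ribosome. MT-RNR1 (ENSG00000211459, MT:648-1601 on the plus strand of GRCh38) had 1370, 1433, and 1747 FPKM in A20-WT, 3781, 4287, and 5625 under the A20-KO label, and 1711, 1507, and 2046 in A20-OE. The libraries labelled A20-KO lay above the other 6, and the ranges of A20-WT and A20-OE overlapped. The log2 fold change was 1.58 (SE 0.22, limma adjusted p = 0.0017) in A20-KO against A20-WT. In A20-OE against A20-KO it was -1.37 (SE 0.22, limma adjusted p = 0.0096). A20-OE against A20-WT gave 0.21 (SE 0.22, limma adjusted p = 0.53), which was not called. The call against A20-WT held without each of the 9 libraries in turn (adjusted p from 0.0037 to 0.0105). The call in A20-OE against A20-KO was lost without A20-OE replicate 1 (adjusted p = 0.060) or replicate 2 (adjusted p = 0.056). Without the filter on low values neither was called (adjusted p = 0.51 and 0.76), and with that filter and the variance trend both left out they were called again.

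MT-RNR2, the 16S rRNA of the large subunit, lies downstream on the same precursor with only MT-TV between them. It had 5271, 4406, and 3721 FPKM in A20-WT, 5592, 7064, and 7689 under the A20-KO label, and 6336, 6114, and 7370 in A20-OE. Its libraries labelled A20-KO and its A20-OE libraries lay above the A20-WT libraries but overlapped each other. The log2 fold change was 0.60 (SE 0.26, limma adjusted p = 0.13) in A20-KO against A20-WT and -0.03 in A20-OE against A20-KO (limma adjusted p = 0.96), neither called. The ratio of MT-RNR1 to MT-RNR2 in FPKM was 0.260, 0.325, and 0.470 in A20-WT. It was 0.676, 0.607, and 0.731 under the A20-KO label, and 0.270, 0.246, and 0.278 in A20-OE. The ratio, chosen after the values were seen, did not overlap between the libraries labelled A20-KO and either other group, and p was 0.1 for both (exact permutation test, two-sided), the smallest value that 3 libraries against 3 can reach.

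**Figure D3:**
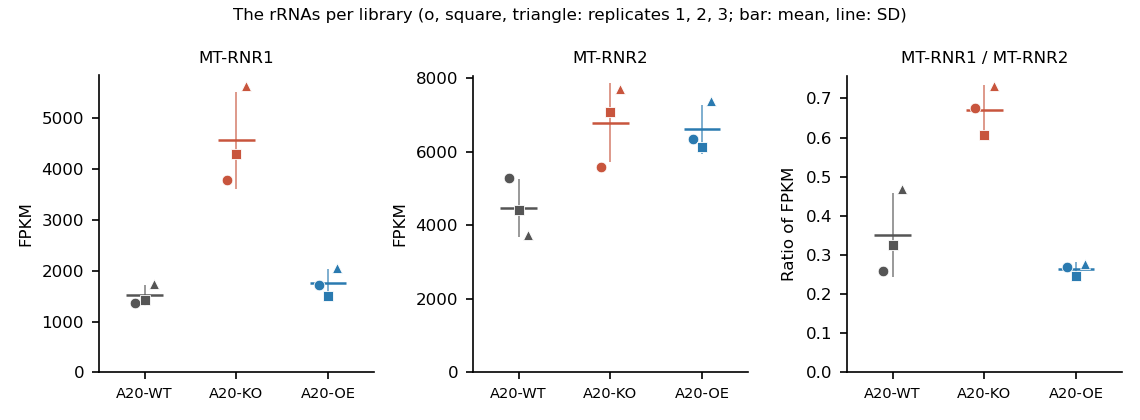
FPKM of MT-RNR1 and MT-RNR2 and their ratio in each library, with points for replicates, a bar for the mean, and a line for the SD. MT-RNR1 is 3781 to 5625 FPKM under the A20-KO label and 1370 to 2046 in the others, while MT-RNR2 shows no such separation from A20-OE.

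No gap separates these rRNAs from the tRNAs before them, and both start points are shown because the rRNA and its neighbouring tRNA had different fold changes. The last 20 bases of the tRNA are in lower case and the first 20 of the rRNA in capitals, from the GENCODE 29 sequences on the plus strand of GRCh38.
MT-TF to MT-RNR1 (MT:628-667): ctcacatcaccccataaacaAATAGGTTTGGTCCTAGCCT
MT-TV to MT-RNR2 (MT:1651-1690): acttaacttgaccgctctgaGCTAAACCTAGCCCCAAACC
MT-TF, the tRNA for phenylalanine, had few reads: 23, 14, and 15 reads in A20-WT, 15, 33, and 19 under the A20-KO label, and 7, 3, and 4 in A20-OE. MT-TF was called lower in A20-OE against A20-KO, with -2.20 (SE 0.37, limma adjusted p = 0.010), and against A20-WT, with -1.83 (SE 0.37, limma adjusted p = 0.0050), and both calls held without any 1 library. Its log2 fold change in A20-KO against A20-WT was 0.37 (limma adjusted p = 0.52), which stands beside 1.58 for the adjoining MT-RNR1. MT-TV, the tRNA for valine, had 214, 227, and 189 reads in A20-WT, 193, 75, and 228 under the A20-KO label, and 75, 89, and 73 in A20-OE. MT-TV was called lower in A20-OE against A20-WT, with a log2 fold change of -1.34 (SE 0.36, limma adjusted p = 0.019). That call was lost without A20-WT replicate 1 or 2 or any 1 of the A20-OE libraries (adjusted p from 0.053 to 0.065).

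Genes classed as giving RNAs without a poly-A tail were followed too, although whether their reads came from tailed RNAs was not tested. A list of 17 such genes (replication-dependent histone mRNAs and small structural RNAs) summed to 18.7 to 25.02 FPKM in A20-WT, 104.9 to 139.3 under the A20-KO label, and 115.9 to 139.7 in A20-OE. Of the 17, 5 had no read in any library, and 12 were tested. Of these, 4 were called higher and none lower in A20-KO against A20-WT, in A20-OE against A20-KO limma and limma-voom called none and none had an unadjusted p under 0.05, and in A20-OE against A20-WT 5 were called higher. As shares of the 12 these are 33.3%, 0%, and 41.7%, beside 22.3%, 8.97%, and 31.1% of the genes tested. HIST1H1C, which encodes a linker histone, made up most of the sum outside A20-WT, with 8.20 ± 1.17 FPKM (SD, n = 3) in A20-WT, 87.0 ± 19.2 under the A20-KO label, and 112 ± 14.8 in A20-OE. HIST1H3B, HIST1H2BJ, and HIST1H2AG were the other genes called in A20-KO against A20-WT, with log2 fold changes of 2.52 (limma adjusted p = 0.0026), 1.22 (limma adjusted p = 0.013), and 0.87 (limma adjusted p = 0.011). In A20-OE against A20-WT the 4 largest were 3.75 (limma adjusted p = 4.7e-06) for HIST1H1C, 2.10 (limma adjusted p = 0.0036) for HIST1H3B, 1.47 (limma adjusted p = 0.046) for SNORD3A, and 1.14 (limma adjusted p = 0.011) for HIST1H2BJ. Over the 12 genes tested, the median log2 fold change was 0.73 in A20-KO against A20-WT and -0.45 in A20-OE against A20-KO. In A20-OE against A20-WT it was 0.81. The sums rest mostly on HIST1H1C outside A20-WT, so they do not stand for the other genes of the list. The part of tail selection in the rRNA and tRNA values was not tested.

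Of the mRNAs for complex I, the entry point of electrons from NADH, limma called 1 of 7 in A20-OE against A20-WT (limma-voom 4) and none in the other comparisons, where 1 and 2 had an unadjusted p under 0.05 and limma-voom called 1 and 2. MT-ND5 had 3168, 3008, and 2253 FPKM in A20-WT, 2619, 3269, and 3107 under the A20-KO label, and 4348, 4822, and 4408 in A20-OE. Each A20-OE library lay above each library of the other groups. The log2 fold change was 0.70 (SE 0.22, limma adjusted p = 0.036) in A20-OE against A20-WT and 0.60 (SE 0.22, limma adjusted p = 0.12) in A20-OE against A20-KO. The call was lost without any 1 library other than A20-WT replicate 1 (adjusted p from 0.058 to 0.121).

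MT-ND6, the complex I subunit encoded on the light-strand transcript, had 5004, 3336, and 2679 FPKM in A20-WT, 3769, 3451, and 4770 under the A20-KO label, and 6243, 5626, and 7402 in A20-OE. Its A20-OE libraries lay above the other 6, yet A20-OE against A20-WT missed the threshold with 0.85 (SE 0.29, limma adjusted p = 0.053). A20-OE against A20-KO gave 0.69 (SE 0.29, limma adjusted p = 0.17). In A20-KO against A20-WT the groups overlapped, and the value was 0.16 (SE 0.29, limma adjusted p = 0.75).

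MT-ND3 had 3089, 5656, and 5461 FPKM in A20-WT, 6821, 7579, and 8784 under the A20-KO label, and 7564, 6602, and 7915 in A20-OE. The low value of A20-WT replicate 1 stands out here, and the libraries labelled A20-KO and A20-OE lay above the A20-WT libraries. The log2 fold changes were 0.75 (SE 0.30, limma adjusted p = 0.11) in A20-KO against A20-WT and 0.68 (SE 0.30, limma adjusted p = 0.12) in A20-OE against A20-WT.

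MT-ND4 had 9609, 7484, and 6579 FPKM in A20-WT, 7731, 8404, and 10881 under the A20-KO label, and 10614, 10278, and 12913 in A20-OE. A20-OE lay above A20-WT without overlap, but the log2 fold change of 0.52 (SE 0.30, limma adjusted p = 0.22) was not called. MT-ND4L had 9568, 5974, and 4258 FPKM in A20-WT, 4839, 8216, and 5049 under the A20-KO label, and 8392, 9897, and 7928 in A20-OE, and the 3 groups overlapped. Its log2 fold changes were -0.09, 0.57, and 0.48 in A20-KO against A20-WT, A20-OE against A20-KO, and A20-OE against A20-WT (limma adjusted p = 0.89, 0.37, and 0.36).

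MT-ND1 and MT-ND2, the complex I genes nearest the rRNAs, had the values of log2 fold change nearest 0 among the complex I mRNAs in A20-OE against A20-WT. MT-ND1 had 4417, 4467, and 4197 FPKM in A20-WT, 3918, 4428, and 5888 under the A20-KO label, and 4769, 4347, and 6016 in A20-OE. MT-ND2 had 5830, 5122, and 4357 FPKM in A20-WT, 4501, 4933, and 6200 under the A20-KO label, and 5336, 5189, and 6228 in A20-OE. In both, the ranges of the 3 groups overlapped. In A20-OE against A20-WT the log2 fold changes were 0.20 (SE 0.25, limma adjusted p = 0.60) for MT-ND1 and 0.14 (SE 0.25, limma adjusted p = 0.73) for MT-ND2.

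Complex III, which passes electrons to cytochrome c, has a single mitochondrially encoded subunit, cytochrome b. MT-CYB had 4473, 4192, and 3671 FPKM in A20-WT, 5529, 5898, and 8088 under the A20-KO label, and 7127, 6745, and 8840 in A20-OE. The A20-WT libraries lay below the other 6, and the libraries labelled A20-KO and A20-OE overlapped. The log2 fold change was 0.88 (SE 0.26, limma adjusted p = 0.031) in A20-OE against A20-WT, which was called, and 0.65 (SE 0.26, limma adjusted p = 0.11) in A20-KO against A20-WT, which was not. The call was lost without any 1 library other than A20-KO replicate 3 (adjusted p from 0.053 to 0.101). As a share of mitochondrial mRNA reads, MT-CYB held 5.82%, 6.45%, and 6.24% in A20-WT, 8.30%, 8.23%, and 8.93% under the A20-KO label, and 7.37%, 7.30%, and 7.501% in A20-OE. By this share the 3 groups did not overlap, with the libraries labelled A20-KO highest.

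Of the 3 complex IV mRNAs, the main limma fit called none. In A20-KO against A20-WT, A20-OE against A20-KO, and A20-OE against A20-WT, 0, 1, and 2 had an unadjusted p under 0.05, and limma-voom called 0, 2, and 3, all higher. In A20-OE against A20-WT limma called 2 of them when the values were scaled to total or nuclear reads, without the variance trend, or over genes with a mean of at least 1 FPKM, so the absence of a call depended on the processing. MT-CO1 had 11642, 9137, and 8927 FPKM in A20-WT, 10270, 10624, and 12402 under the A20-KO label, and 17288, 16381, and 21676 in A20-OE. The A20-OE libraries lay above the other 6, and the log2 fold change of 0.90 (SE 0.31, limma adjusted p = 0.053) in A20-OE against A20-WT narrowly missed the threshold. MT-CO2 had 12582, 10881, and 10995 FPKM in A20-WT, 11488, 11759, and 16987 under the A20-KO label, and 18427, 17403, and 24983 in A20-OE. Its A20-OE libraries also lay above the other 6, with 0.80 (SE 0.34, limma adjusted p = 0.10) in A20-OE against A20-WT. MT-CO3 had 12048, 12490, and 12173 FPKM in A20-WT, 12680, 13422, and 19318 under the A20-KO label, and 17676, 15212, and 22395 in A20-OE. MT-CO3 in A20-OE overlapped the libraries labelled A20-KO but not A20-WT, and its value against A20-WT was 0.57 (SE 0.34, limma adjusted p = 0.24).

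The complex IV genes held 41.1%, 42.2%, and 45.9% of mitochondrial mRNA reads in A20-WT, 44.3%, 42.7%, and 44.4% under the A20-KO label, and 48.2%, 46.5%, and 50.6% in A20-OE. The 7 complex I genes held 40.5 ± 1.30% of them in A20-WT, 39.6 ± 1.49% under the A20-KO label, and 36.9 ± 1.81% in A20-OE. Within the mitochondrial mRNA, MT-CO1 alone held 24.3 ± 0.473% of reads in A20-OE against 19.99 ± 0.859% in A20-WT and 19.8 ± 1.18% under the A20-KO label. The FPKM ratio of MT-CO1 to MT-ND1 was 3.60 to 3.77 in A20-OE and 2.05 to 2.64 in the other 6 libraries (exact permutation p = 0.1 against each group, two-sided, a ratio chosen after its values were seen).

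Neither complex V mRNA was called by limma or limma-voom, and neither had an unadjusted p under 0.05. MT-ATP6 had 15711, 10541, and 8654 FPKM in A20-WT, 9434, 9347, and 12416 under the A20-KO label, and 11779, 11817, and 13672 in A20-OE, with its highest value in A20-WT replicate 1. Its log2 fold changes were -0.13, 0.27, and 0.14 in A20-KO against A20-WT, A20-OE against A20-KO, and A20-OE against A20-WT (limma adjusted p = 0.82, 0.66, and 0.80). MT-ATP8 had 46.7, 79.8, and 55.5 FPKM in A20-WT, 89.2, 67.2, and 90.8 under the A20-KO label, and 47.9, 67.9, and 63.9 in A20-OE. The groups overlapped in each comparison, and MT-ATP8 had log2 fold changes of 0.46, -0.46, and 0.00 in that order (limma adjusted p = 0.16, 0.22, and 1.0). The complex V genes together held 10.2 ± 1.78% of mitochondrial mRNA reads in A20-WT, 8.16 ± 0.342% under the A20-KO label, and 7.29 ± 0.355% in A20-OE.

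The tRNA reads were concentrated on a few light-strand genes. MT-TN, MT-TC, and MT-TP together held 64.9% to 87.3% of the tRNA reads of a library. Of the 22 tRNAs, 15 had at least 10 reads in every library, and 5 had 3 or fewer in some library. MT-TA, MT-TN, MT-TC, and MT-TY, the tRNAs for alanine, asparagine, cysteine, and tyrosine, lie next to one another on the light-strand transcript around the origin of light-strand replication. They are printed because their reads differed widely between neighbours, together with MT-TP, the proline tRNA, and the heavy-strand tRNAs MT-TF, MT-TI (isoleucine), and MT-TV (valine), each of which was called in some comparison. The sequences are the GENCODE 29 transcripts on GRCh38, 5′ to 3′, with the anticodon in capitals.
MT-TA (MT:5587-5655, minus): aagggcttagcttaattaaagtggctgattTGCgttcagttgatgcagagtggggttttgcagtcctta
MT-TN (MT:5657-5729, minus): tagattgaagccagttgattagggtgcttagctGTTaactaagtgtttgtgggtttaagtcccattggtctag
MT-TC (MT:5761-5826, minus): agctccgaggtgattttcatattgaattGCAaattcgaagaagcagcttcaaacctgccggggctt
MT-TY (MT:5826-5891, minus): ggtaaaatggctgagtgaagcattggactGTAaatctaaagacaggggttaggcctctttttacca
MT-TP (MT:15956-16023, minus): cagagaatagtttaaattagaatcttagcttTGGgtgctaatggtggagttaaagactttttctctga
MT-TF (MT:577-647, plus): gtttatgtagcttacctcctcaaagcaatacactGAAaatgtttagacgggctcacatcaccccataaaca
MT-TI (MT:4263-4331, plus): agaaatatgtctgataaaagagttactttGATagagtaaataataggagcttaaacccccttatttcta
MT-TV (MT:1602-1670, plus): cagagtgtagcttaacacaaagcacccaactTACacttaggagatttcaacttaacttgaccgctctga
The tRNA genes are 59 to 75 bases long, shorter than the 150 bp reads, so FPKM on them rests on how fragments reaching past the gene were counted, which was not tested.

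**Figure D4:**
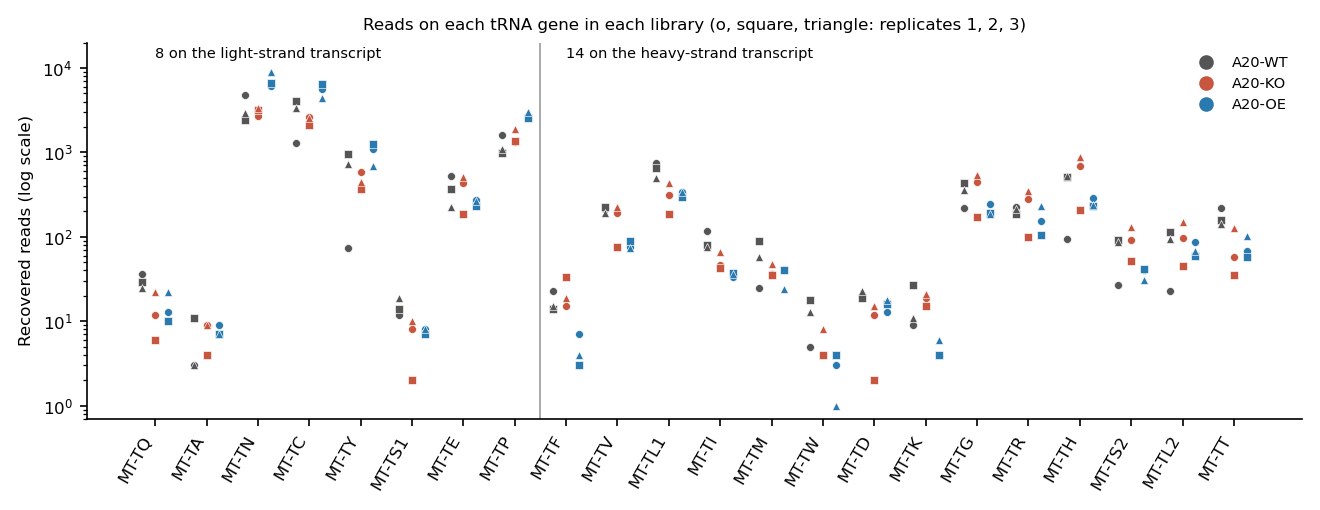
Recovered reads (log scale) on each of the 22 tRNA genes in each library, with the 8 light-strand tRNAs on the left and the 14 heavy-strand tRNAs on the right. MT-TN, MT-TC, and MT-TP carry the most reads and are highest in A20-OE, while MT-TI and MT-TF are lowest there.

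MT-TN had 4802, 2427, and 2936 reads in A20-WT, 2702, 3176, and 3335 under the A20-KO label, and 6149, 6716, and 8837 in A20-OE. MT-TA, separated from it by 1 base on the same strand, had 3 to 11 reads in each library. The FPKM ratio of MT-TN to MT-TA was between 209 and 1513. MT-TN rose in A20-OE, with log2 fold changes of 1.25 (SE 0.29, limma adjusted p = 0.033) against A20-KO and 1.21 (SE 0.29, limma adjusted p = 0.011) against A20-WT. The A20-OE libraries lay above the other 6. The call against A20-KO held only without 1 of the A20-WT libraries and was lost without any 1 of the others (adjusted p from 0.077 to 0.117), whereas the call against A20-WT held without each library in turn.

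MT-TP had 1584, 984, and 1105 reads in A20-WT, 1322, 1373, and 1868 under the A20-KO label, and 2649, 2528, and 2979 in A20-OE. Here, too, A20-OE lay above the other 6 libraries. MT-TP rose by 1.25 (SE 0.23, limma adjusted p = 0.0034) on the log2 scale in A20-OE against A20-WT, a call that held without each library in turn. In A20-OE against A20-KO the log2 fold change was 0.87 (SE 0.23, limma adjusted p = 0.049), and this call was lost without any 1 library other than A20-WT replicate 1 (adjusted p from 0.052 to 0.163).

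MT-TC had 1296, 4008, and 3308 reads in A20-WT, 2619, 2107, and 2520 under the A20-KO label, and 5670, 6393, and 4374 in A20-OE. The low count of A20-WT replicate 1 widened its spread. MT-TC was called in A20-OE against A20-WT with 1.14 (SE 0.38, limma adjusted p = 0.049), which was lost without any 1 library other than A20-WT replicate 2 (adjusted p from 0.058 to 0.143), and without A20-WT replicate 1 it was 0.077. MT-TY, which overlaps MT-TC by 1 base, had 74, 964, and 732 reads in A20-WT, 591, 372, and 449 under the A20-KO label, and 1100, 1240, and 696 in A20-OE. The FPKM ratio of MT-TC to MT-TY was 4.16 to 6.28 in 8 libraries and 17.5 in A20-WT replicate 1. MT-TY was not called, with 1.47 (SE 0.81, limma adjusted p = 0.21) in A20-OE against A20-WT and 1.11 (SE 0.81, limma adjusted p = 0.43) in A20-OE against A20-KO.

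MT-TE, the light-strand tRNA for glutamic acid next to MT-CYB, did not share this order. It had 530, 371, and 225 reads in A20-WT, 438, 184, and 505 under the A20-KO label, and 274, 232, and 263 in A20-OE, the groups overlapped, and its log2 fold changes were 0.01, -0.41, and -0.39 in A20-KO against A20-WT, A20-OE against A20-KO, and A20-OE against A20-WT (limma adjusted p = 1.0, 0.58, and 0.51). MT-TQ (glutamine) had 6 to 36 reads and MT-TS1 (serine) 2 to 19, and neither was called. Light-strand tRNAs as a whole held 0.0335% to 0.0371% of all reads in A20-WT, 0.0306% to 0.0366% under the A20-KO label, and 0.0678% to 0.0705% in A20-OE.

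Heavy-strand tRNAs held less of the mitochondrial reads in A20-OE, with 0.0397% to 0.0488%, than in A20-WT, with 0.0814% to 0.126%. The libraries labelled A20-KO ranged from 0.0419% to 0.107%, the lowest being replicate 2. MT-TI had 117, 79, and 76 reads in A20-WT, 46, 43, and 66 under the A20-KO label, and 33, 37, and 36 in A20-OE. Its A20-OE libraries lay below the other 6, and the libraries labelled A20-KO lay below A20-WT. MT-TI fell in A20-OE against A20-WT, with -1.26 (SE 0.21, limma adjusted p = 0.0020), and this call held without each library in turn. In A20-KO against A20-WT the log2 fold change was -0.76 (SE 0.21, limma adjusted p = 0.031), a call that was lost without any 1 library other than A20-WT replicate 3 or A20-KO replicate 3 (adjusted p from 0.0504 to 0.105).

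MT-TL1, a leucine tRNA that adjoins MT-RNR2, had 750, 650, and 496 reads in A20-WT, 310, 186, and 439 under the A20-KO label, and 338, 293, and 342 in A20-OE. The A20-WT libraries lay above the other 6. MT-TL1 was called lower in A20-KO against A20-WT with -1.03 (SE 0.30, limma adjusted p = 0.037), and in A20-OE against A20-WT it just missed the threshold with -0.87 (SE 0.30, limma adjusted p = 0.054). The call was lost without any 1 library other than A20-WT replicate 3 or A20-KO replicate 3 (adjusted p from 0.058 to 0.114). MT-TT, the threonine tRNA after MT-CYB, had 220, 158, and 140 reads in A20-WT, 58, 35, and 127 under the A20-KO label, and 68, 57, and 101 in A20-OE. It had the same order of groups as MT-TL1, with A20-WT above the other 6 libraries, and was not called, with -1.36 (SE 0.44, limma adjusted p = 0.056) in A20-KO against A20-WT and -1.14 (SE 0.44, limma adjusted p = 0.081) in A20-OE against A20-WT.

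The 5 heavy-strand tRNAs between MT-CO3 and MT-ND5 were not called in any comparison. A20-KO replicate 2 was the lowest of its group on each of them, and A20-WT replicate 1 on 4. MT-TH (histidine) had 94, 516, and 527 reads in A20-WT, 694, 205, and 870 under the A20-KO label, and 290, 230, and 236 in A20-OE. MT-TG (glycine) had 221, 431, and 362 reads in A20-WT, 445, 172, and 540 under the A20-KO label, and 245, 191, and 187 in A20-OE. For both, the groups overlapped. MT-TR (arginine) had 100 to 344 reads per library, MT-TS2 (serine) 27 to 132, and MT-TL2 (leucine) 23 to 150. MT-TM (methionine), next to MT-ND2, had 24 to 90 reads. The log2 fold changes of MT-TH were 0.81 (SE 0.71, limma adjusted p = 0.46) and -0.97 (SE 0.71, limma adjusted p = 0.43) in A20-KO against A20-WT and A20-OE against A20-KO, with the widest error of these.

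The remaining called tRNAs had few reads. MT-TK, the lysine tRNA, had 9, 27, and 11 reads in A20-WT, 19, 15, and 21 under the A20-KO label, and 4, 4, and 6 in A20-OE, and was called lower in A20-OE against A20-KO, with -1.93 (SE 0.37, limma adjusted p = 0.017), and against A20-WT, with -1.49 (SE 0.37, limma adjusted p = 0.014). Without A20-OE replicate 1 or 2 both calls were lost (adjusted p from 0.058 to 0.085), and the first was also lost without A20-KO replicate 1 (0.067) or 3 (0.068). MT-TW, the tryptophan tRNA, had 5, 18, and 13 reads in A20-WT, 4, 4, and 8 under the A20-KO label, and 3, 4, and 1 in A20-OE, and was called lower in A20-OE against A20-WT, with -2.04 (SE 0.56, limma adjusted p = 0.022). That call was lost without A20-WT replicate 2 (0.085) or 3 (0.070) or A20-OE replicate 3 (0.075). MT-TD (aspartic acid) had 2 to 23 reads and was not called.

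The median spread between libraries of 1 group was wider for each class of these genes than for abundant nuclear genes. The within-group SD of log2(FPKM + 0.1) had a median of 0.25 over the 13 protein-coding genes, 0.23 over the 2 rRNAs, and 0.64 over the 22 tRNAs. Over the 291 nuclear genes with a mean of at least 100 FPKM the median was 0.20. Those nuclear genes ranged from 0.046 to 0.53, a range that holds each of the protein-coding and rRNA members. The differences between these medians were not tested. Many of the tRNAs had few reads, so their spread was not compared at a like number of reads.

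To see which members moved apart from the mitochondrial mRNAs as a whole, the mean log2(FPKM + 0.1) of the 13 protein-coding genes was subtracted in each library and the fit repeated across all genes. In A20-KO against A20-WT 6 of the 37 members were called on this scale, where 15.5% of the genes tested were. In A20-OE against A20-KO it was 6 of 37, where 9.85% were, and in A20-OE against A20-WT 11 of 37, where 36.4% were. The share of members was thus near that of the genes tested in A20-KO against A20-WT, above it in A20-OE against A20-KO, and below it in A20-OE against A20-WT. All genes of a library were shifted by the same amount, so these shares of the genes tested include that shift. The scale is centred on the 13 protein-coding genes themselves, so their values on it balance around 0 by construction and are given as a description only. None of them was called, and MT-CYB, MT-ATP8, MT-CO1, MT-ATP6, MT-ND2, and MT-ND6 were each called in 1 of the 9 fits with 1 library left out in some comparison. The largest absolute values were -0.77 (SE 0.24, limma adjusted p = 0.065) for MT-ATP8 in A20-OE against A20-KO and 0.53 (SE 0.28, limma adjusted p = 0.22) for MT-ND3 in A20-KO against A20-WT. MT-RNR1 had relative log2 fold changes of 1.36 (SE 0.20, limma adjusted p = 0.0029) in A20-KO against A20-WT and -1.68 (SE 0.20, limma adjusted p = 0.0044) in A20-OE against A20-KO, and both calls held without each library in turn. MT-RNR2 was not called, with 0.38 (SE 0.17, limma adjusted p = 0.14) and -0.34 (SE 0.17, limma adjusted p = 0.22).

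Among the tRNAs on this relative scale, MT-TL1, MT-TT, MT-TI, MT-TQ, and MT-TS1 were lower in A20-KO against A20-WT. The first 3 calls held without each library in turn, whereas MT-TQ was called in 7 and MT-TS1 in 1 of the 9 fits with 1 library left out. In A20-OE against A20-WT, 7 of the 14 heavy-strand tRNAs (MT-TF, MT-TV, MT-TL1, MT-TI, MT-TW, MT-TK, and MT-TT) were lower and none higher. Of the 8 light-strand tRNAs, MT-TN and MT-TP were higher and MT-TQ and MT-TS1 lower. MT-TI had the smallest error of the heavy-strand tRNAs, with -1.78 (SE 0.17, limma adjusted p = 6.8e-05). MT-TP had 0.72 (SE 0.18, limma adjusted p = 0.0094), and this call held without each library in turn, while that of MT-TN held in 3 of 9. In A20-OE against A20-KO, MT-TN was higher with 0.94 (SE 0.22, limma adjusted p = 0.031), and MT-TV, MT-TI, MT-TF, and MT-TK were lower. Of these, MT-TF held in 9, MT-TK in 8, MT-TI in 5, MT-TN in 3, and MT-TV in 3 of the 9 fits.

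The nuclear genes that transcribe, process, and maintain this genome were followed from lists, tested in the same fit. Of 34 genes for mitochondrial RNA processing and stability, none was called higher in any comparison, while 14 were lower in A20-KO against A20-WT, 3 in A20-OE against A20-KO, and 26 in A20-OE against A20-WT. These are 41.2%, 8.82%, and 76.5% of the list, beside 22.3%, 8.97%, and 31.1% of the genes tested, so the share in A20-OE against A20-KO was near the background. The list medians of log2 fold change were -0.39, -0.12, and -0.47, against -0.01, 0.01, and 0.03 over all genes tested. FASTKD2, an RNA-binding protein of mitochondrial RNA granules, had 8.58 ± 1.97 FPKM (SD, n = 3) in A20-WT, 4.20 ± 0.219 under the A20-KO label, and 4.29 ± 0.241 in A20-OE, a log2 fold change of -0.99 (limma adjusted p = 0.0023) in A20-KO against A20-WT and -0.96 (limma adjusted p = 0.0014) in A20-OE against A20-WT. LRPPRC, which stabilises mitochondrial mRNAs together with SLIRP, had 44.3 ± 8.19 FPKM (SD, n = 3) in A20-WT, 27.8 ± 3.22 under the A20-KO label, and 31.9 ± 0.775 in A20-OE. Its log2 fold change was -0.66 (limma adjusted p = 0.0093) in A20-KO against A20-WT, and those of FASTKD3 and PDE12 were -0.86 (limma adjusted p = 0.013) and -0.80 (limma adjusted p = 0.010). MRM1, an rRNA methyltransferase, had -1.27 (limma adjusted p = 0.0014), SLIRP -0.92 (limma adjusted p = 0.0019), and TRMU, a tRNA-modifying enzyme, -0.83 (limma adjusted p = 0.0010) in A20-OE against A20-WT. The genes called in A20-OE against A20-KO were HSD17B10, a subunit of the enzyme that cuts tRNA 5′ ends, with -0.81 (limma adjusted p = 0.024), TRMU with -0.50 (limma adjusted p = 0.038), and PUS1, a pseudouridine synthase, with -0.46 (limma adjusted p = 0.046).

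Of 9 genes for mitochondrial transcription, 4 were lower and 1 higher in A20-KO against A20-WT, none was called in A20-OE against A20-KO, and 4 were lower and 1 higher in A20-OE against A20-WT. The called share was 55.6%, 0%, and 55.6%, beside 22.3%, 8.97%, and 31.1% of the genes tested, and the list medians were -0.25, -0.04, and -0.21, beside -0.01, 0.01, and 0.03. TFAM, which packages mitochondrial DNA and activates its promoters, had 13.5 ± 1.69 FPKM (SD, n = 3) in A20-WT, 8.73 ± 0.731 under the A20-KO label, and 7.96 ± 0.144 in A20-OE, with -0.62 (limma adjusted p = 0.0053) in A20-KO against A20-WT and -0.74 (limma adjusted p = 0.0012) in A20-OE against A20-WT. MTERF3 had -0.70 (limma adjusted p = 0.017) and -1.17 (limma adjusted p = 9.0e-04), TEFM, the elongation factor, -0.55 (limma adjusted p = 0.046) and -0.78 (limma adjusted p = 0.0077), and TFB2M, the initiation factor, -0.54 (limma adjusted p = 0.019) and -0.40 (limma adjusted p = 0.048) in the same comparisons. The gene called higher was C6orf203, also named MTRES1, with 0.46 (limma adjusted p = 0.026) and 0.38 (limma adjusted p = 0.039). Its call in A20-OE against A20-WT was lost with limma-voom (adjusted p = 0.073).

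Of 15 genes for mitochondrial DNA replication, 8 were lower and 1 higher in A20-KO against A20-WT, none was called in A20-OE against A20-KO, and 7 were lower and 1 higher in A20-OE against A20-WT. The called share was 60%, 0%, and 53.3%, beside 22.3%, 8.97%, and 31.1% of the genes tested. DNA2 and MGME1, nucleases that act in replication, had -1.02 (limma adjusted p = 0.0082) and -0.999 (limma adjusted p = 0.0011) in A20-KO against A20-WT, and -1.51 (limma adjusted p = 6.9e-04) and -1.19 (limma adjusted p = 1.9e-04) in A20-OE against A20-WT. RNASEH1 and TOP3A had -0.81 (limma adjusted p = 0.0047) and -0.81 (limma adjusted p = 0.0025) in A20-KO against A20-WT, and TOP3A and PRIMPOL had -0.997 (limma adjusted p = 4.4e-04) and -0.85 (limma adjusted p = 0.0083) in A20-OE against A20-WT. Of 10 regulators of mitochondrial biogenesis tested, 4 were lower and none higher both in A20-KO against A20-WT and in A20-OE against A20-WT, and none was called in A20-OE against A20-KO. That share, 40% in either comparison with A20-WT, stands beside the same backgrounds. They were PPRC1 with -0.95 (limma adjusted p = 1.9e-04) and -0.73 (limma adjusted p = 2.2e-04), NRF1 with -0.44 (limma adjusted p = 0.027) and -0.49 (limma adjusted p = 0.013), and TFAM and TFB2M as above. Of the transcription, replication, and biogenesis lists in A20-OE against A20-KO, 2, 3, and 2 genes had an unadjusted p under 0.05, limma-voom called 0, 1, and 0, and the medians were -0.04, 0.05, and 0.13.

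Nuclear copies of mitochondrial DNA can share reads with the members. Of 407 such annotated copies, 86 had reads, and they summed to 15812 to 29411 reads per library, or 0.670% to 1.23% of the mitochondrial reads. MTATP6P1, MTND2P28, and MTCO1P12, neighbours on chromosome 1, held 50.3%, 44.8%, and 4.06% of them. MTATP6P1 (chr1:633696-634376) was not called, and A20-KO replicate 2 had 19960 of its reads where the other 8 libraries had 6793 to 12668. MTCO1P12 was called higher in A20-KO against A20-WT (log2 fold change 0.85, limma adjusted p = 0.013) and in A20-OE against A20-WT (1.05, limma adjusted p = 0.0030). The other copies called were MTND5P1, with 0 to 18 reads per library, and MTND6P21, with 0 to 5. MTND5P1 was higher in A20-OE against A20-KO (log2 fold change 1.77, limma adjusted p = 0.038) and against A20-WT (1.98, 0.0075), and MTND6P21 higher in A20-OE against A20-WT (2.26, limma adjusted p = 0.011). The part of shared reads in the values of MT-ATP6, MT-ND2, MT-CO1, MT-ND5, and MT-ND6 was not tested.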

How the data were processed

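The 9 libraries came from HCT116 cells of 3 groups. Per the submitters' processing notes, the authors aligned reads with HISAT2 2.0.5 and counted them on genes with featureCounts 1.5.0-p3. They deposited FPKM per gene, which are normalised by gene length and library depth. Gene coordinates equalled those of GENCODE 29 on GRCh38 for 99.98% of the genes and for the 37 members. Whole reads were recovered from the deposited FPKM and gene length, within 0.1 read for 100% of the nonzero values. Their totals were 0.95 to 1.066 times the depth that the FPKM imply, and above it in A20-KO replicate 3 and A20-OE replicates 1 and 3. That depth was thus not the total of reads counted on genes, and how it was set is not given in the sources used here. Sequences came from the GENCODE 29 transcripts, which held all 37 members.

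Because FPKM are not counts, genes with a mean of at least 0.1 FPKM were tested by limma 3.58.1 (R 4.3.3). Values entered as log2(FPKM + 0.1), the variance followed a trend, and the 3 groups shared 1 fit. Each member is named, with full statistics for the mRNAs, rRNAs, and tRNAs with at least 10 reads in every library. From each nuclear list, the 4 called genes with the largest absolute fold change per comparison are named. The members and lists were chosen with earlier results of these data known. Reads carry no molecular identifiers. The alternatives were other pseudocounts, filters, scalings, and fold thresholds, fits on 2 groups, with a replicate block, or without the variance trend, limma-voom on recovered reads, and each library left out. A fit without filter and trend, and those of the relative scale, were added after the data were seen.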

Additional observations from a re-analysis of the deposited data

How the results depend on the processing

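The values rest on 3 libraries per group, and 7 tRNAs had fewer than 10 reads in some library. In A20-KO against A20-WT, 3 members were called, and the count was 0 without the filter, 1 without filter and variance trend, 8 over genes with a mean of at least 1 FPKM, 5 when scaled to total reads, 1 in a fit on those groups alone, and 7 with limma-voom on recovered reads. In A20-OE against A20-KO it was 5, and 0 without the filter, 1 without filter and trend, and 10 with limma-voom. At an unadjusted p under 0.05 with the filter, the first comparison had 10 members and the second 12. Of the 21636 genes tested, 7686 and 5521 had such a p in the same comparisons. In A20-OE against A20-WT the count of members called was 10, and 2 without the filter, 5 without filter and trend, 16 over genes with a mean of at least 1 FPKM, and 18 with limma-voom. With 1 library left out the counts ran from 1 to 6, from 1 to 8, and from 5 to 10. On the scale relative to mitochondrial mRNA they ran from 4 to 8 (6 called), from 2 to 10 (6 called), and from 9 to 17 (11 called). A member was lost in 115 of 378 recomputations and reversed in none, and the cause was not tested. Scaled to total reads, 732 genes were called higher and 1415 lower in A20-OE against A20-KO, instead of 958 and 982. With limma-voom, 2897 of 21636 genes were called higher and 2758 lower in A20-KO against A20-WT. In A20-OE against A20-KO it was 1324 and 1198, and in A20-OE against A20-WT 3855 and 3523. Over genes with a mean of at least 1 FPKM, 2169 of 12796 were called higher and 2443 lower in A20-KO against A20-WT. That filter gave 2613 and 3210 in A20-OE against A20-WT. The 53 changes of sign all concerned members that were not called.

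The mitochondrial share became 30.7%, 32.9%, and 39.2% of summed FPKM in A20-WT, the libraries labelled A20-KO, and A20-OE. In the latter pair it was 8.84% and 11.5% of reads with protein-coding genes only, and 8.88% and 11.5% without the rRNAs. With 1 library left out the shares ran from 8.12% to 9.42%, from 9.66% to 11.0%, and from 12.1% to 13.1%.

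Libraries with the same replicate number were not shown to be paired: their deviations from the group means correlated by 0.037 on average over genes, against -0.018 for different numbers. With the replicate block 5, 5, and 12 members were called, MT-TC in A20-OE against A20-WT was lost (adjusted p = 0.056), MT-CO1 (0.026), MT-CO2 (0.044), and MT-ND6 (0.044) were gained there, MT-TQ (0.040) and MT-TT (0.035) were gained in A20-KO against A20-WT, and 6, 4, and 13 were called on the relative scale.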
